A study of Mus musculus with 6 samples.

Results

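Ptprz1, which encodes a receptor-type protein tyrosine phosphatase, was examined together with the genes of its ligands, pleiotrophin (Ptn) and midkine (Mdk), in the ventral lumbar spinal cord of mice. The 3 genes were chosen by name, and counted with them were the assembled transcripts that overlap an exon of one of them on the same strand. Of 12894 genes that could be tested these are 3, and they hold 34 assembled transcripts, 4 to 7 in each library, among 31899 to 33791 transcripts a library. The study compared C57BL/6 mice of 5 weeks in 2 genotypes, wild type (WT, 3 libraries) and Gde2KO (3 libraries). Gde2KO mice lack Gdpd5, the gene of GDE2, a surface enzyme that cuts the glycosylphosphatidylinositol (GPI) anchor of membrane proteins. The labels say neither how the allele was made nor which cells lack the gene, give no sex, and name no treatment. Its stated subject is neuronal GDE2, Wnt signals and the maturation of oligodendrocytes, the cells that make myelin.

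The extracellular part of Ptprz1 carries chondroitin sulfate chains, and in the nervous system the gene is used mainly by oligodendrocyte precursors and astrocytes. Splicing gives a long receptor, a short receptor that lacks a stretch of attachment sites for these chains, and a secreted form without the membrane and phosphatase parts, called phosphacan. Ptn and Mdk are small heparin-binding growth factors; binding of pleiotrophin is known to inactivate the phosphatase, and this raises the tyrosine phosphorylation of its substrates.

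Levels are in FPKM, in which fragments are divided by assembled transcript length and by library size, as the authors' assemblies give them. They are thus per assembled length, so a comparison between genes also depends on where each assembled transcript ends. The level of a gene is the FPKM summed over the transcripts at each counted base, averaged over those bases and scaled between libraries by factors of 0.989 to 1.04. Relative depth ran from 0.910 to 1.14, highest in Gde2KO replicate 3. That library stood apart: its log2 differences from the others had a robust SD of 0.243 to 0.272, against 0.125 to 0.168 among the other 5. Gdpd5 was at 5.38, 6.54 and 5.95 FPKM in WT libraries and at 1.24, 1.197 and 0.946 in Gde2KO (fold 0.202, limma adjusted p = 0.00526), so it was low in every Gde2KO library. Markers of the tissue were present in all 6 libraries, with the motor neuron gene Chat at 16.7 to 23.7 FPKM, the myelin gene Mag at 446 to 520 and the astrocyte gene Gfap at 559 to 700. Gde2KO replicate 1 was lowest in the summed level of 8 tested genes of meningeal fibroblasts, at 44.2 FPKM against 81.3 to 104 elsewhere. It was also lowest in 5 tested Schwann cell genes, at 96.5 FPKM against 170.2 to 356, and was the one library with Xist listed at 0. In bulk tissue, fewer cells of a type and less RNA per cell cannot be told apart.

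The forms of Ptprz1 part at exon 12, the largest coding exon, with 3547 bases at chr6:22999200-23002746 on the plus strand of GRCm38 (mm10). The first 5 sequences, taken from GENCODE vM21 transcripts, are shown because they mark the points at which the long, short and secreted forms differ. In the first, capitals mark bases that only the long forms keep after the inner splice site. In both receptor junctions they mark exon 13. In the secreted form they mark the bases past exon 12 up to and with the stop codon TAG, and in the last they mark the small exon 16.
Ptprz1 exon 12 read past its inner splice site (chr6:23000170-23000229): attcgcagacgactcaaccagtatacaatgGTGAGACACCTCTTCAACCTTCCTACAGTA
Ptprz1 short receptor junction (chr6:23000170-23000199 joined to chr6:23007274-23007303): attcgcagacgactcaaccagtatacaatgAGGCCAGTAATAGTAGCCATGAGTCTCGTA
Ptprz1 long receptor junction (chr6:23002717-23002746 joined to chr6:23007274-23007303): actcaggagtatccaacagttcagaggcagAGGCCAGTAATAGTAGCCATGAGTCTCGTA
Ptprz1 end of the secreted form (chr6:23002717-23002751): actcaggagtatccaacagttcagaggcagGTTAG
Ptprz1 exon 16 between exons 15 and 17 (chr6:23022255-23024974, exonic bases only): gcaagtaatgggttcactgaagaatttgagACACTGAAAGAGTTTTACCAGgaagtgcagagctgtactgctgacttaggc

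The short receptor thus keeps the first 1000 bases of exon 12 and drops the remaining 2547, which are 849 codons. The annotated coding sequence has 2312 codons in the long receptor (transcript Ptprz1-201), 1463 in the short receptor (Ptprz1-204) and 1612 in the secreted form (Ptprz1-206). Exon 16, at chr6:23024714-23024734, has 21 bases and adds 7 codons to the intracellular side of the receptor.

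Ptprz1 (ENSMUSG00000068748.7, chr6:22875502-23052916, plus strand) had near-equal levels in both genotypes. It was at 30.4, 32.0 and 28.9 FPKM in WT libraries and at 34.4, 33.0 and 28.9 in Gde2KO. The groups overlapped, with replicate 3 lowest in each genotype. The means were 30.4 ± 1.56 and 32.1 ± 2.88 (SD, n = 3 each), giving a fold of 1.05 (95% interval 0.905 to 1.22; limma adjusted p = 0.884). The sign of the difference depended on how transcripts were combined: the log2 difference was 0.07 by the level over counted bases, -0.13 by the plain sum of transcripts and -0.15 by the transcript with the highest FPKM.

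Of the ligands, Ptn (ENSMUSG00000029838.11, chr6:36714929-36810220, minus strand) was the more abundant in 5 of 6 libraries by the level over counted bases. Its level was 47.8, 80.4 and 78.0 FPKM in WT and 72.7, 59.0 and 74.3 in Gde2KO. The groups overlapped, and the lowest and the highest library were both WT. The means were 68.8 ± 18.2 and 68.6 ± 8.40 (SD, n = 3 each), giving a fold of 1.02 (95% interval 0.690 to 1.51; limma adjusted p = 0.987). Its interval is wider than that of Ptprz1.

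Mdk (ENSMUSG00000027239.14, chr2:91929805-91932297, minus strand) was at 59.3, 51.0 and 45.0 FPKM in WT libraries and at 50.3, 42.8 and 34.95 in Gde2KO. The lowest library was Gde2KO replicate 3 and the highest was WT replicate 1, but the groups overlapped. The means were 51.8 ± 7.18 and 42.7 ± 7.67 (SD, n = 3 each), with a fold of 0.821 (95% interval 0.617 to 1.09) that did not pass (limma adjusted p = 0.882). Without Gde2KO replicate 3 the log2 difference went from -0.29 to -0.15. None of the 3 genes was called, where 0.116% of all genes tested were (15 of 12894), and none had groups without overlap, where 10.9% of all genes did. An unadjusted limma p under 0.05, reached by 3.91% of all genes, was reached by none of the 3.

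**Figure D1:**
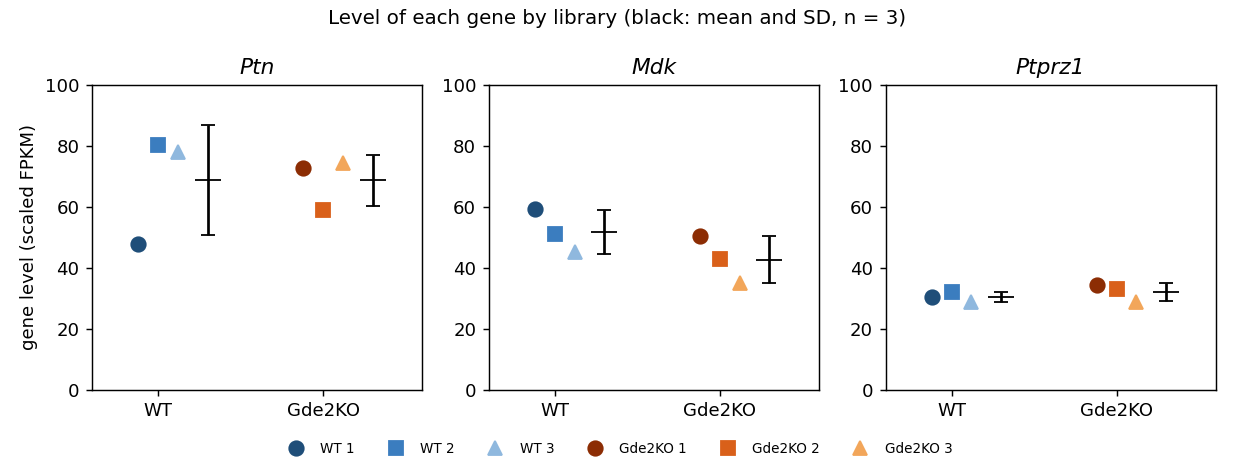
Scaled FPKM of Ptn, Mdk and Ptprz1 in each library, with 3 WT libraries on the left and 3 Gde2KO libraries on the right of each panel; black marks give the mean and SD (n = 3). The genotypes overlap for all 3 genes, and the Ptn values of WT run from 47.8 to 80.4.

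All 3 genes were abundant among the genes tested. Between 5.86% and 10.2% of genes had a higher level than Ptn, 8.18% to 14.2% than Mdk and 14.7% to 17.5% than Ptprz1. Mdk stood above Ptprz1 in 6 of 6 libraries by the level over counted bases, on average 1.49-fold (exact sign-flip test over the 6 libraries, p = 0.03125, adjusted over 3 gene pairs 0.0469, two-sided). Ptn stood above Ptprz1 in 6 of 6 by that level, on average 2.16-fold, with the same exact p, the smallest this test can give with 6 libraries. The order of Mdk and Ptprz1 depended on the part of Ptprz1 taken, since its level averages over bases that only some forms carry. Over exons 1 to 11, which all forms share, deposited FPKM put Mdk above Ptprz1 in WT replicates 1 and 2 and Gde2KO replicate 1. It put Mdk below Ptprz1 in Gde2KO replicates 2 and 3, and the genes were near-equal in WT replicate 3. The level of Ptn was above Ptprz1 over exons 1 to 11 in every library, but by less than above. The gap was smallest in WT replicate 1, at 47.8 scaled FPKM for Ptn against 46.0 deposited FPKM for Ptprz1. The order of the ligands depended on the measure. By the level over counted bases Ptn was 1.45-fold above Mdk on average, and in WT replicate 1 it was below Mdk (exact sign-flip p = 0.0625, adjusted 0.0625). In that library 51.0% of the counted bases of Ptn were assembled, and the unassembled bases lowered its level. By the transcript with the highest FPKM, Ptn was above Mdk in 6 of 6 libraries, on average 1.98-fold (exact sign-flip p = 0.03125, adjusted 0.03125). These 3 pairs were compared after the values were seen.

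By the level over counted bases, the ratios of Ptn to Ptprz1 and of Ptn to Mdk overlapped between the genotypes. The log2 ratio of Ptn to Ptprz1 was 0.65, 1.33 and 1.43 in WT and 1.08, 0.83 and 1.36 in Gde2KO. WT replicate 1 was lowest and WT replicate 3 highest, so the Gde2KO values lay within those of WT (difference -0.05, exact permutation p = 0.9, two-sided). The log2 ratio of Ptn to Mdk was -0.31, 0.65 and 0.79 in WT and 0.53, 0.46 and 1.09 in Gde2KO (difference 0.31, exact permutation p = 0.6). With 3 libraries against 3 the smallest exact p is 0.1, so no such single value could pass at 0.05. The p-values measure the spread between these libraries, since the labels do not say whether each came from 1 animal.

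A single assembled transcript held Ptn in every library, with 5 exons and the intron chain of the annotated transcript Ptn-201. The second annotated transcript, Ptn-202, was assembled in none. What differed between libraries was where the last exon ended. It held 40, 828 and 836 bases in WT and 89, 40 and 828 in Gde2KO. WT replicate 1 and Gde2KO replicate 2 ended at chr6:36715723, inside the coding sequence.

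The deposited FPKM of that Ptn transcript was 97.3, 81.8 and 78.0 in WT and 133, 115 and 74.4 in Gde2KO. The 3 libraries with a last exon of 40 or 89 bases had the 3 highest values. In those libraries 51.0% to 54.04% of the counted bases of Ptn were assembled, against 100% in the other 3. By this measure the log2 difference between genotypes was 0.34 (limma adjusted p = 0.933). Libraries with the short end numbered 1 in WT and 2 in Gde2KO. With FPKM multiplied by length in kilobases, a fragment value in which length is no divisor, Ptn was at 116, 142 and 135 in WT and at 132, 103 and 131 in Gde2KO, a log2 difference of -0.07. By this value the order turned: the short-ended libraries WT replicate 1 and Gde2KO replicate 2 were the lowest, and Gde2KO replicate 1 lay level with the lowest of the long-ended ones. Whether the unassembled end held reads was not tested.

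**Figure D2:**
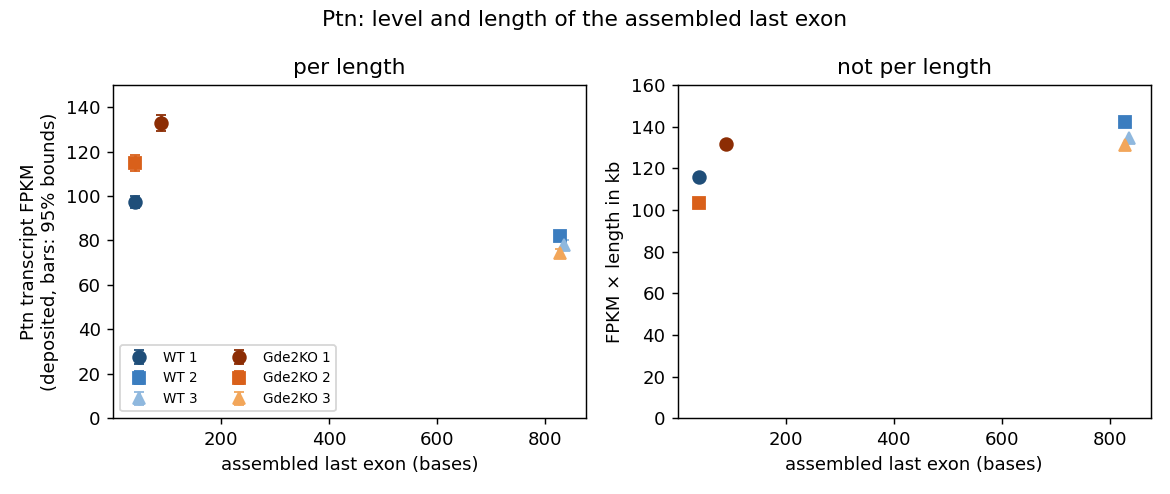
Ptn in 6 libraries against the assembled length of its last exon in bases; the left panel gives the deposited transcript FPKM with the authors' 95% bounds and the right panel gives FPKM times length in kilobases. The 3 libraries at 40 or 89 bases lie at 97.3 to 133 FPKM and the 3 at 828 or 836 bases at 74.4 to 81.8, while by FPKM times length the former lie at 103 to 132 and the latter at 131 to 142, in the opposite order with little overlap.

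The ratios of Ptn to the other genes followed the same choice. With the transcript of highest FPKM in place of the level over counted bases, the log2 ratio of Ptn to Mdk was 0.66, 0.65 and 0.79 in WT and 1.42, 1.32 and 1.09 in Gde2KO. The groups then did not overlap, and the exact permutation p was 0.1, the smallest the design allows. The log2 ratio of Ptn to Ptprz1 was 1.49, 1.34 and 1.43 in WT and 1.86, 1.78 and 2.08 in Gde2KO by that measure, again with no overlap. In Gde2KO replicate 3, the highest of these, the Ptprz1 transcript of highest FPKM held 17.5 FPKM, against 28.8 to 36.5 in the other 5 libraries.

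Mdk was also assembled as 1 transcript with 5 exons in 6 of 6 libraries. Of its 4 annotated transcripts, which share 140 codons and differ in their first exon, the intron chain was that of Mdk-202 each time. The assembled start lay between chr2:91931766 and chr2:91931809, around the annotated start of Mdk-202 at chr2:91931780. Its last exon had 219, 220 and 222 bases in the WT libraries and 179, 223 and 234 in the Gde2KO libraries, so it varied far less than that of Ptn.

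Assembled Ptprz1 forms followed 1 pattern in 5 libraries and another in Gde2KO replicate 3. In the 5 libraries a secreted form with 12 exons, read through the whole of exon 12, stood beside a transcript with the short receptor junction. The secreted form was at 34.6, 32.2 and 28.8 FPKM in WT libraries and at 36.5 and 33.3 in Gde2KO replicates 1 and 2. The short receptor junction was at 11.4, 17.8 and 16.2 FPKM in WT libraries and at 11.2 and 17.3 in the same Gde2KO replicates. As assembled, the secreted form was thus the higher one in 5 of 5 libraries, and both genotypes overlapped for each form. No long receptor was assembled in these libraries, and how exon 12 divides between it and the secreted form was not tested. In WT replicate 1 and Gde2KO replicate 1 the short receptor transcript stopped in exon 13. Exons 17 to 26 stood there at 19.5 and 20.8 FPKM.

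Gde2KO replicate 3 held neither the secreted form nor the short receptor junction. It held 2 transcripts with the long receptor junction, at 17.5 and 11.03 FPKM, which differed in exon 16, and the one with that exon had the whole intron chain of Ptprz1-201. A further transcript of 12 exons there, at 11.9 FPKM, stopped 955 bases into exon 12. It had the intron chain of the secreted form, Ptprz1-206, but ended before the inner splice site, so it does not show which form it belongs to. No transcript of the other 5 libraries joined the whole of exon 12 to exon 13. Thus 1 library of 6 carried the long receptor junction, and the other Gde2KO libraries lacked it as the WT libraries did. It is also the library that stood apart over all genes, and why it alone carried this form was not tested. The files give assembled transcripts, and reads across each junction were not analysed here.

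**Figure D3:**
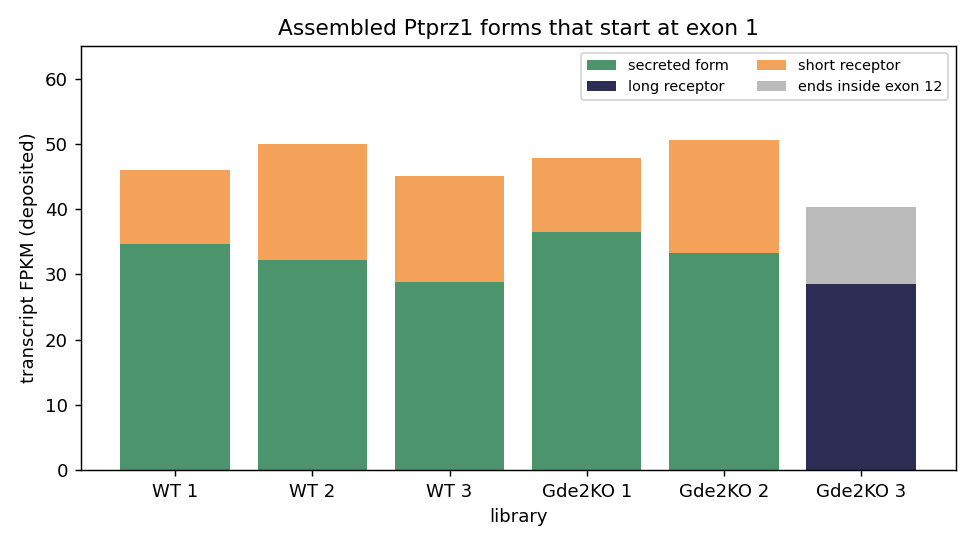
Deposited FPKM of the assembled Ptprz1 transcripts that start at exon 1, stacked by form for each of the 6 libraries. The first 5 libraries hold the secreted form (28.8 to 36.5 FPKM) and the short receptor junction (11.2 to 17.8), and Gde2KO replicate 3 holds the long receptor junction (28.5 in all) and a transcript that ends inside exon 12 (11.9).

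How far the receptor transcripts reached also varied. They ended in exon 13 in WT replicate 1 and Gde2KO replicate 1, in exon 27 in WT replicates 2 and 3, and in exon 30 in Gde2KO replicates 2 and 3. The transcript of Gde2KO replicate 2 had the complete chain of 30 exons of the short receptor, Ptprz1-204. In the 4 libraries whose receptor transcript broke off, separate pieces of the 3′ part were assembled, which summed to 25.5, 23.2 and 7.56 FPKM in WT and to 36.6 in Gde2KO replicate 1. A plain sum of transcripts adds such pieces to the rest of the gene.

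Along the gene, the level stepped down at exon 12 in all 6 libraries. Over exons 1 to 11, shared by all forms, the deposited FPKM summed to 46.0, 49.99 and 45.0 in WT and to 47.8, 50.6 and 40.4 in Gde2KO. Over the 2547 bases of exon 12 that the short receptor lacks it was 34.6, 32.2 and 28.8 in WT and 36.5, 33.3 and 28.5 in Gde2KO. Both stretches overlapped between genotypes (exact permutation p = 0.9 and 0.8, two-sided).

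Over exons 13 to 30, which hold the membrane and phosphatase parts, the level was 15.2, 18.2 and 14.4 FPKM in WT and 19.1, 16.9 and 27.6 in Gde2KO. Gde2KO replicate 3 was the highest and the others overlapped. The means were 15.9 ± 1.9996 and 21.2 ± 5.68 (SD, n = 3 each; exact permutation p = 0.2, adjusted over 4 stretches 0.8), and without that library the Gde2KO mean was 18.0. Relative to exons 1 to 11 the receptor part was 33.0%, 36.3% and 31.9% in WT and 39.9%, 33.3% and 68.4% in Gde2KO. The difference of 13.4 percentage points (exact permutation p = 0.2) was 2.86 without Gde2KO replicate 3; this share was chosen after the values were seen. It takes unassembled bases as 0 and depends on where assembled pieces end. From exon 26 to exon 28 the level went from 19.5, 17.8 and 16.2 FPKM to 5.95, 23.2 and 7.51 in WT. In Gde2KO replicate 1 it went from 20.8 to 15.9, and in the other Gde2KO libraries it stayed the same.

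**Figure D4:**
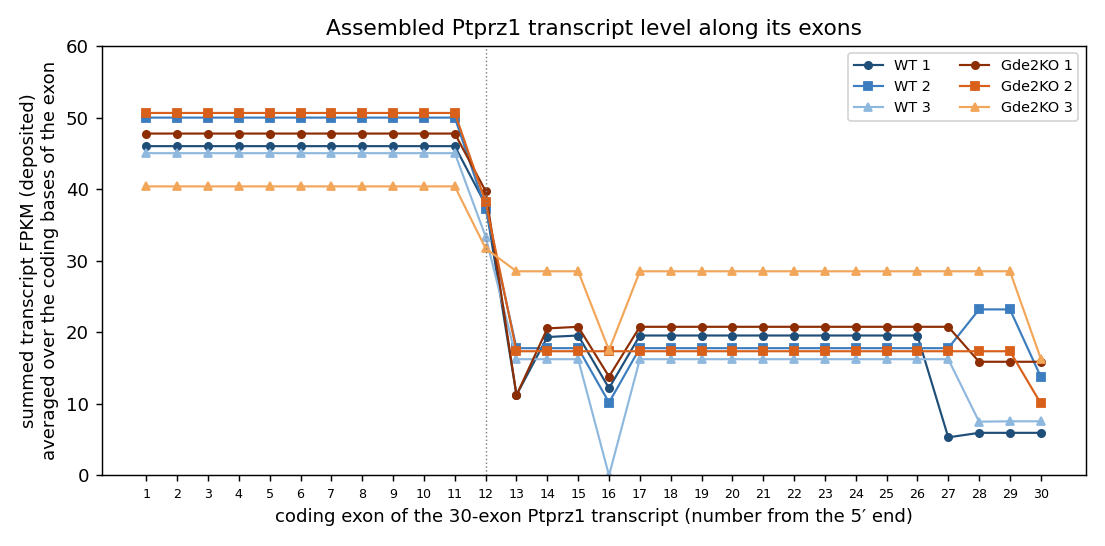
Deposited FPKM summed over Ptprz1 transcripts and averaged over the coding bases of each exon, by exon number from the 5′ end, with 1 line per library. All lines step down from 40.4 to 50.6 FPKM over exons 1 to 11 to a lower level from exon 13 on, where Gde2KO replicate 3 lies highest over most exons. Within 1 assembled transcript the value is constant by construction, so steps mark where transcripts begin, end or skip an exon.

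Exon 12 itself was described by 2 shares. Its level as a share of the mean over the other coding exons was 141%, 123% and 128% in WT and 133%, 129% and 97.7% in Gde2KO, lowest in Gde2KO replicate 3. The means were 131 ± 9.01 and 120 ± 19.1 (SD, n = 3 each; difference -11.05 percentage points, exact permutation p = 0.6). The difference was -0.094 without Gde2KO replicate 3, -6.07 without WT replicate 1, -17.5 without Gde2KO replicate 1 and -3.82 against the 3 exons on each side. The share of Ptprz1 FPKM in transcripts that hold the whole of exon 12 was 48.4%, 44.0% and 54.7% in WT and 43.3%, 65.7% and 70.6% in Gde2KO. Both the lowest and the 2 highest values were in Gde2KO (difference 10.8 percentage points, exact permutation p = 0.4), and the difference was 5.47 without Gde2KO replicate 3 and 19.1 without Gde2KO replicate 1. This share falls where 3′ pieces are counted as transcripts of their own, and the 2 libraries without such pieces were the 2 highest.

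The bases of exon 12 that the long forms keep stood at 75.2%, 64.4% and 63.9% of its first 1000 bases in WT and at 76.5%, 65.7% and 71.6% in Gde2KO. By this value, Gde2KO replicate 3 lay within the range of the others. It too was chosen after the values were seen (difference 3.42 percentage points, exact permutation p = 0.5).

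Exon 16 was included in some transcripts and skipped in others within the same library. Of the FPKM that crosses this place, transcripts with exon 16 held 62.4% and 57.3% in WT replicates 1 and 2, and 66.5% and 61.3% in Gde2KO replicates 1 and 3. In WT replicate 3 it was 0% and in Gde2KO replicate 2 it was 100%. In each of those 2 libraries 1 transcript alone crossed the place. In the 4 libraries with both versions the range was 57.3% to 66.5%, with both genotypes in it.

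The secreted form continued past its stop codon at chr6:23002749-23002751. Assembled ends lay between chr6:23003206 and chr6:23003401 in 5 libraries, 1277 to 1472 bases short of the annotated end at chr6:23004678. A piece of 1 exon without a strand, 379 to 442 bases long, was assembled within that remaining stretch in 6 of 6 libraries. It was at 9.40, 9.53 and 8.68 FPKM in WT libraries and at 10.4, 8.71 and 8.40 in Gde2KO, with overlap. Gde2KO replicate 3 thus held this piece as well, though no secreted form was assembled there.

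Assembled first exons began upstream of the annotated starts. For Ptprz1 the start lay 37, 185 and 212 bases upstream in WT and 47, 61 and 40 in Gde2KO, and for Ptn 369, 129 and 109 bases in WT and 121, 81 and 158 in Gde2KO. The windows from 250 bases before to 50 after the RefSeq start are shown from RefSeq on GRCm38.p6 because they hold all of these starts but that of Ptn in WT replicate 1, which lies upstream of its window. Capitals mark bases inside the assembled first exon in all 6 libraries.
Ptprz1 promoter (chr6:22875252-22875551, plus strand): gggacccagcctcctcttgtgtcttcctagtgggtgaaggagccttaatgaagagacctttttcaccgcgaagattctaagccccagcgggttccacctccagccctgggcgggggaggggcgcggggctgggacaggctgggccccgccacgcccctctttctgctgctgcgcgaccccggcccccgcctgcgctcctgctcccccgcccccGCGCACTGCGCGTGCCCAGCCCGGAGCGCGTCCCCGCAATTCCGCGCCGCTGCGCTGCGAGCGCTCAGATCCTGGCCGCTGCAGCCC
Ptn promoter (chr6:36810130-36810429, minus strand): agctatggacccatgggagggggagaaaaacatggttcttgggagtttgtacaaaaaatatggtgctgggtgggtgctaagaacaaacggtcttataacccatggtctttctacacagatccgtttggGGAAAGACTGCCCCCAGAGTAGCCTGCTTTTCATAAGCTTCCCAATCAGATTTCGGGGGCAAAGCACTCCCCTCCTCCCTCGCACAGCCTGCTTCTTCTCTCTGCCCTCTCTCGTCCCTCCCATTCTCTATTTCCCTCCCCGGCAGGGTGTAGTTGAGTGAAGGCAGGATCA

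The Ptprz1 window is rich in CpG, with 29 CpG pairs and 71.7% G and C, while the Ptn window has 6 and 52%, near the median of all 32851 promoter windows (7 and 52.7%). A set of 3 short motifs were searched on both strands. CCGCCC, the core of a GC box, is in the Ptprz1 window and in 35.7% of all windows, and not in that of Ptn. TATAAA, found in 13.6% of windows, and CTTTGA, the core bound by Tcf and Lef factors and found in 16.003%, are in neither.

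Other receptors of the ligands were present at widely different levels, and none was called. Of 19 listed receptors of Ptn and Mdk 17 were tested, with 7 higher and 10 lower in Gde2KO and a median log2 difference of -0.04, against 0.00 over all genes. The neuronal syndecan Sdc3, a heparan sulfate carrier that binds pleiotrophin, was the most abundant on average, at 101, 119 and 119 FPKM in WT and 121, 118 and 83.4 in Gde2KO. Lrp1, an endocytic receptor that binds midkine, was at 44.8, 50.6 and 45.4 FPKM in WT and 47.1, 49.1 and 46.0 in Gde2KO, with a fold of 1.01 (95% interval 0.893 to 1.15). Its groups overlapped, and its interval is narrow. The receptor tyrosine kinase Alk lay near the lower limit of testing, at 1.38, 1.28 and 1.22 FPKM in WT and 1.47, 1.24 and 1.07 in Gde2KO. Nrp1, a semaphorin co-receptor, was the 1 gene of 17 without overlap, at 7.23, 5.45 and 5.19 in WT and 5.11, 4.77 and 4.97 in Gde2KO (limma adjusted p = 0.882). Of all genes tested, 10.9% had groups without overlap, a larger share than 1 of 17.

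Partners that bind the extracellular part of Ptprz1 also had no call. Of 12 tested, 4 were higher and 8 lower (median log2 difference -0.04). Cntn1, a GPI-anchored adhesion molecule and a main partner of the receptor, was at 83.0, 92.7 and 87.3 FPKM in WT libraries and at 87.2, 81.5 and 91.8 in Gde2KO. Its groups overlapped, with a fold of 0.989 (95% interval 0.866 to 1.13). Tnr, the matrix protein tenascin-R, was at 19.1, 12.7 and 20.1 in WT and 23.9, 22.5 and 19.9 in Gde2KO (fold 1.30, 0.934 to 1.80). The adhesion molecule L1cam was the 1 gene of 12 without overlap, where 10.9% of all genes tested had none. Its fold was 0.921 (0.836 to 1.02).

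Inside the cell, 11 substrates and effectors of Ptprz1 were tested, with 6 higher and 5 lower (median log2 difference 0.01). Ctnnb1, the gene of beta-catenin, a substrate of the phosphatase and a Wnt effector, was at 104, 106 and 98.2 FPKM in WT and 107, 109 and 117 in Gde2KO. It was the 1 gene of 11 without overlap, where 10.9% of all genes tested had none. Its fold was 1.08 (0.960 to 1.22, limma adjusted p = 0.882). Fyn, a kinase of the oligodendrocyte lineage, had a fold of 0.995 (0.851 to 1.16). Add2, an adducin, was at 8.20, 8.88 and 26.5 in WT and 25.1, 26.1 and 27.0 in Gde2KO, so that WT replicate 3 lay with the Gde2KO libraries.

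Among other receptor phosphatases 4 of 16 tested were higher and 12 lower (median log2 difference -0.06), with no call. Ptprg, the closest relative of Ptprz1, was at 8.78, 8.97 and 7.85 FPKM in WT and 9.07, 8.496 and 8.32 in Gde2KO. The chondroitin sulfate receptor Ptprs (fold 0.994, 0.885 to 1.12) and the related Ptprd (1.02, 0.927 to 1.13) likewise overlapped between genotypes. Groups did not overlap in 4 of 16, where 10.9% of all genes did. These were Ptprb, Ptpru, Ptprm and Ptprj, the last 2 named after their values were seen, with folds of 0.880, 0.879, 0.914 and 1.10. Summed endothelial and mural markers, cells in which Ptprb is known to be used, stood at 117, 106 and 107 FPKM in WT libraries and at 102, 102 and 98.6 in Gde2KO; their part in the Ptprb values was not tested.

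The genes that make and carry chondroitin sulfate had no call either. Of 21 tested synthesis genes, 10 were higher and 11 lower (median log2 difference -0.00). Groups did not overlap in 2 of 21, where 10.9% of all genes tested did not. These were Csgalnact2, a starter enzyme of the chain (fold 1.16, 1.01 to 1.32), and the sulfotransferase Chst12 (0.696, 0.399 to 1.21). For Chst12, Gde2KO replicate 3 was at 8.94 FPKM against 19.0 to 22.7 in the others. Of 12 tested proteoglycan cores and link proteins, 7 were higher and 5 lower (median 0.07). Bgn, the core of biglycan, a proteoglycan of connective tissue, was at 26.0, 27.2 and 24.4 in WT and 17.5, 23.7 and 21.4 in Gde2KO (fold 0.802, 0.649 to 0.991, limma adjusted p = 0.882). The lowest of these was Gde2KO replicate 1, the library with the lowest meningeal sum, and the part of that sum in the Bgn value was not tested.

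Proteases of the families that can release the Ptprz1 ectodomain numbered 13 tested, 4 higher and 9 lower (median log2 difference -0.07). Adam10 was at 14.2, 13.2 and 13.04 FPKM in WT libraries and at 14.8, 14.2 and 15.4 in Gde2KO, without overlap (fold 1.10, 0.983 to 1.22). Adamts1, a protease of proteoglycan cores, had a fold of 0.804 (0.618 to 1.05) and Mmp2, named after its values were seen, of 0.857 (0.692 to 1.06), also without overlap. Groups did not overlap in these 3 of 13 proteases, where 10.9% of all genes tested did not, and no protease was called.

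**Figure D5:**
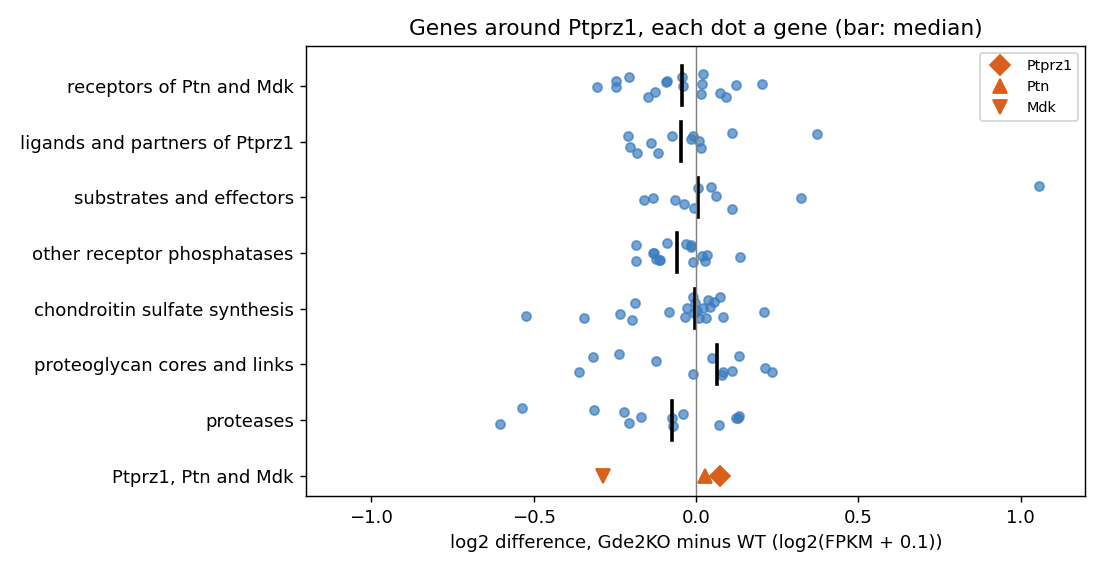
Log2 difference between Gde2KO and WT for each tested gene of 7 lists around Ptprz1, with a bar at the median of each list and orange marks for Ptprz1, Ptn and Mdk; vertical position within a row carries no value. List medians run from -0.07 to 0.07, Mdk lies at -0.29, and the farthest dot is Add2 at 1.06.

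Markers of the cell types in which Ptprz1 is known to be used had no call in either direction. Of 12 tested genes of oligodendrocyte precursors, 8 were higher and 4 lower (median log2 difference 0.02, no call), with the growth factor receptor Pdgfra at 7.44, 9.45 and 8.67 FPKM in WT and 8.76, 9.83 and 10.6 in Gde2KO. Neu4, a sialidase, had a fold of 1.17 (0.929 to 1.47), while Sox10, a lineage factor named after its values were seen, had 0.827 (0.609 to 1.12). Of 12 astrocyte genes, 7 were higher and 5 lower (median 0.05, no call), with the water channel Aqp4 at 90.6, 110 and 107 in WT and 141, 101 and 103 in Gde2KO. Sox9, a glial transcription factor, had the smallest p of that list, at 8.21, 6.42 and 7.39 in WT and 4.96, 6.79 and 4.32 in Gde2KO (fold 0.724, 0.526 to 0.998; limma adjusted p = 0.882). Aldh1l1, a folate enzyme, had a fold of 1.14 (0.957 to 1.35). The summed level of the precursor genes was 319, 380.1 and 360 FPKM in WT and 360, 361 and 277 in Gde2KO. It was lowest in Gde2KO replicate 3. Olig1, its largest term and named after its values were seen, was at 115 FPKM there against 141 to 174 elsewhere. Sox10 was at 42.3 there against 60.1 to 72.0 elsewhere. Pdgfra was highest in that library, so the low sum does not hold for every precursor gene. The summed level of the astrocyte genes was 1770 to 2135 over the 6 libraries. Gde2KO replicate 3 also had the lowest Mdk level, and the part of these cells in it was not tested.

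Genes whose level followed each member most closely were found by Pearson's r of log2 levels centred within genotype, over 6 libraries and 8197 genes with a mean of at least 5 FPKM. They were Nova2, Tmem28 and Prpf38b for Ptprz1 (r of 0.998 to 0.9995), Gstm1, Ero1l and Spry2 for Ptn (0.996 to 0.998) and Pcyox1l, Astn1 and Ndufa12 for Mdk (0.990 to 0.993). The values share library depth and assembly across genes and rest on 6 libraries, so they are given as a description.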

How the data were processed

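Of poly-A RNA libraries, 3 were of WT and 3 of Gde2KO spinal cord. Per the submitters' processing notes, FastQC, TopHat2 2.1.1, Cufflinks 2.2.1, Cuffdiff 2.2.1 and the build mm10 were used. For FastQC, no version is given in the sources used here. The authors deposited 1 assembly a library, with FPKM and its 95% bounds per transcript and no reference gene names. FPKM are not counts, so no count test was used.

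Transcripts of at least 200 exonic bases were matched to GENCODE vM21 on GRCm38 through shared exon bases on one strand; those lacking a strand were matched on either. Counted bases belong to 1 gene and were assembled in at least 3 libraries (at least 200 bases). The test took genes averaging 1 FPKM or more before scaling. It used log2(FPKM + 0.1) of the scaled gene levels with limma 3.58.1 in R 4.3.3 (trend, robust, two-sided, Benjamini-Hochberg, threshold 0.05), checked on simulated data. Single values used exact permutation tests in Python 3.11.15. The pseudocount understates changes of low genes.

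The members and the 17 gene lists were chosen with earlier results of these data known. Genes that may be named are the members, Gdpd5, the tested receptors and partners, a fixed set, and the 2 genes of smallest p of each other list. Replicate numbers did not pair the libraries. All libraries carry the same flow cell label, so no batch was tested. Alternatives are given in the closing section.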

Additional observations from a re-analysis of the deposited data

How the results depend on the processing

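No alternative called Ptprz1, Ptn or Mdk; limma adjusted p ran from 0.784 to 0.999. The log2 difference of Ptprz1 became -0.13 with the plain sum of transcripts and -0.15 with the transcript of highest FPKM, and that of Ptn became -0.074 with fragments per gene and -0.0055 with no scaling. Leaving out 1 library gave 0.02 to 0.15 for Ptprz1, -0.21 to 0.16 for Ptn (lowest without WT replicate 1) and -0.41 to -0.15 for Mdk. The direction of Mdk held in 20 of 20 alternatives, but these reuse the same libraries and are not separate checks. Limma without trend and robust, zeros as missing and the replicate block returned its main log2 difference unchanged. The log2 difference of the Ptn to Ptprz1 ratio became 0.48 with the plain sum, 0.49 with the highest transcript and 0.23 over bases assembled in all 6 libraries, an alternative chosen after seeing the data, and ran from -0.29 to 0.10 with 1 library left out. The difference of the Ptn to Mdk ratio ran from -0.031 to 0.52 with 1 library left out, the former without WT replicate 1. Both exon 12 shares kept their sign in 10 of 10 alternatives each, but not their size. For both, no minimum transcript length and the replicate block returned the main value, as did multi-exon transcripts only for the FPKM share. A replicate block cannot move a mean difference in this balanced design, so the count overstates how often the sign was tested. With 1 library left out the level share ran from -17.5 to -0.094 percentage points (the latter without Gde2KO replicate 3). The FPKM share then ran from 5.47 to 19.1, and the level share was -3.82 with 3 exons on each side. The 15 genes called became 9 with the highest transcript, 9 with fragments per gene, 4 over bases assembled in all 6 libraries, 1 at a mean FPKM of at least 5, 4 with zeros as missing, and 10 to 26 with 1 library left out; the cause was not tested. Same-numbered libraries had correlations of deviations of -0.01, -0.04 and -0.15, so the numbers do not pair them; with a replicate block 2 genes were called, none of them a member, and the log2 differences of the members were the same. Assembled ends limit what FPKM can show for Ptn, and 3 libraries a genotype limit every exact test.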
